A study of Arabidopsis thaliana with 12 samples.

Results

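The line labelled vtc2/OE-VTC2 L15 (OE), by its label an overexpression of VTC2 in the vtc2 background, was compared with wild type (WT) in Arabidopsis thaliana rosettes. The members are the genes of the deposited table that reached 1 FPKM (fragments per kilobase of transcript, scaled to the size of the library) in 3 or more of the 6 OE and WT libraries, which left 16815 of 33618 genes. GRX480, at 1.68, 1.38 and 1.77 FPKM in its 3 highest libraries, lay just inside this limit, and ERF98, with only the OE values 1.06 and 1.23 at or above 1, lay just outside it.

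The series holds 12 libraries, 3 each of WT, the mutant vtc2 (allele vtc2-4), the mutant vtc4 (allele vtc4-4) and OE. Each library came from 8 pooled rosettes of untreated plants aged 4 weeks, which grew at 22 °C with 8 h of light (300 μmol photons m-2 s-1) and 16 h of darkness. Harvest was 30 min after the lights came on. The OE group is 1 line, so an effect of the transgene and a property of that line cannot be told apart. No label gives the promoter or construct, and whether the FPKM values count transgene transcripts in full is unknown. The mutants serve here to show the level of each OE gene beside its background genotype.

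Ascorbate, the major water-soluble antioxidant of leaves, is made in plants mainly from GDP-mannose through GDP-L-galactose, L-galactose and L-galactono-1,4-lactone. VTC2, the GDP-L-galactose phosphorylase, catalyses the first committed step of this route and is regarded as its main control point, and its translation is repressed by ascorbate. Ascorbate is also a cosubstrate of dioxygenases in hormone synthesis, and the series' title links it to auxin biosynthesis.

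The 6 libraries had FPKM sums between 706783 and 755265, and 16591 to 16887 genes per library reached 1 FPKM. Across genes, which do not count as replicates, Pearson's r of log2(FPKM + 1) was 0.9861 to 0.9903 between WT and OE libraries, 0.9881 to 0.9892 among WT and 0.9836 to 0.9902 among OE. Light-harvesting and Rubisco genes identified the tissue as leaf (LHCB3, an antenna protein, stood between 5063 and 6345 FPKM), the 6 floral markers all stayed under 1 FPKM, and of the 8 root markers only PYK10 passed the filter. RCA, RBCS1A and LHCB1.3 were listed at 0 in all 6 libraries although leaves use such genes throughout, so a listed 0 is not taken as absence. OE replicate 2 stood apart from the other OE libraries for defence genes, and vtc2 replicate 2, outside the comparison, stood apart for purine-rich transcripts. Both are given beside the results they touch.

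Differences were tested with limma on log2(FPKM + 1) over all genes that passed the filter, with Benjamini-Hochberg adjustment and a call at an adjusted p below 0.05. Fold changes are on that scale and understate the change of weakly expressed genes, and n = 3 libraries a genotype throughout. Only 3 of 16815 genes (0.0178%) were called in OE against WT. VTC2 itself and CPK27 fell (2 genes, 0.0119%) and AT1G75945 rose (1 gene, 0.00595%). At an unadjusted p below 0.05 there were 1025 genes (6.1%), 508 higher (3.02%) and 517 lower (3.07%). In the same model 888 genes (5.28%) were called in OE against vtc2, 527 (3.13%) in vtc2 against WT and 5 (0.0297%) in vtc4 against WT; these comparisons share libraries with OE against WT. The median gene differed by -0.01 on the log2 scale between OE and WT, the central 90% of genes lay between -0.19 and 0.21, and 55 genes differed by at least 2-fold, 37 higher and 18 lower. The number of calls depended on 1 library outside the comparison, since leaving out vtc2 replicate 2 raised it from 3 to 22 (20 higher). Leaving out WT replicate 2, WT replicate 3 or OE replicate 2 gave 2 genes called higher in place of 1.

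VTC2 (AT4G26850, TAIR10.1 chromosome 4, 13498956 to 13501701, minus strand) was lower in the line labelled for its overexpression than in WT. It stood at 745, 810 and 900 FPKM in the WT libraries and at 411, 366 and 372 in OE. Every OE value lay below every WT value, and the OE mean was 46.8% of the WT mean (383 ± 24.6 against 819 ± 77.4, SD, n = 3). The fall was -1.09 on the log2 scale (SE 0.11, limma adjusted p = 0.00112). Against its own background the direction was the opposite: vtc2 held 16.4, 20.3 and 14.8 FPKM, and OE stood 4.41 log2 units higher (limma adjusted p = 1.81e-10). VTC2 in vtc4 was at 719, 781 and 850 FPKM, among the WT values. Because VTC2 mRNA goes against the word overexpression, every direction here is one of the libraries labelled OE. Of the 10 annotated genes nearest to VTC2, 4 were tested and 0 were called in OE against WT. The adjacent AT4G26860 was at 93.3 ± 5.51 FPKM in OE and 110 ± 4.82 in WT (log2 -0.23, limma unadjusted p = 0.00362). In vtc2 this gene was lower still, at 76.7 ± 5.79 FPKM (vtc2 minus WT -0.51, limma adjusted p = 0.00479). OE thus lay between vtc2 and WT (OE minus vtc2 0.28, limma adjusted p = 0.0318).

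**Figure D1:**
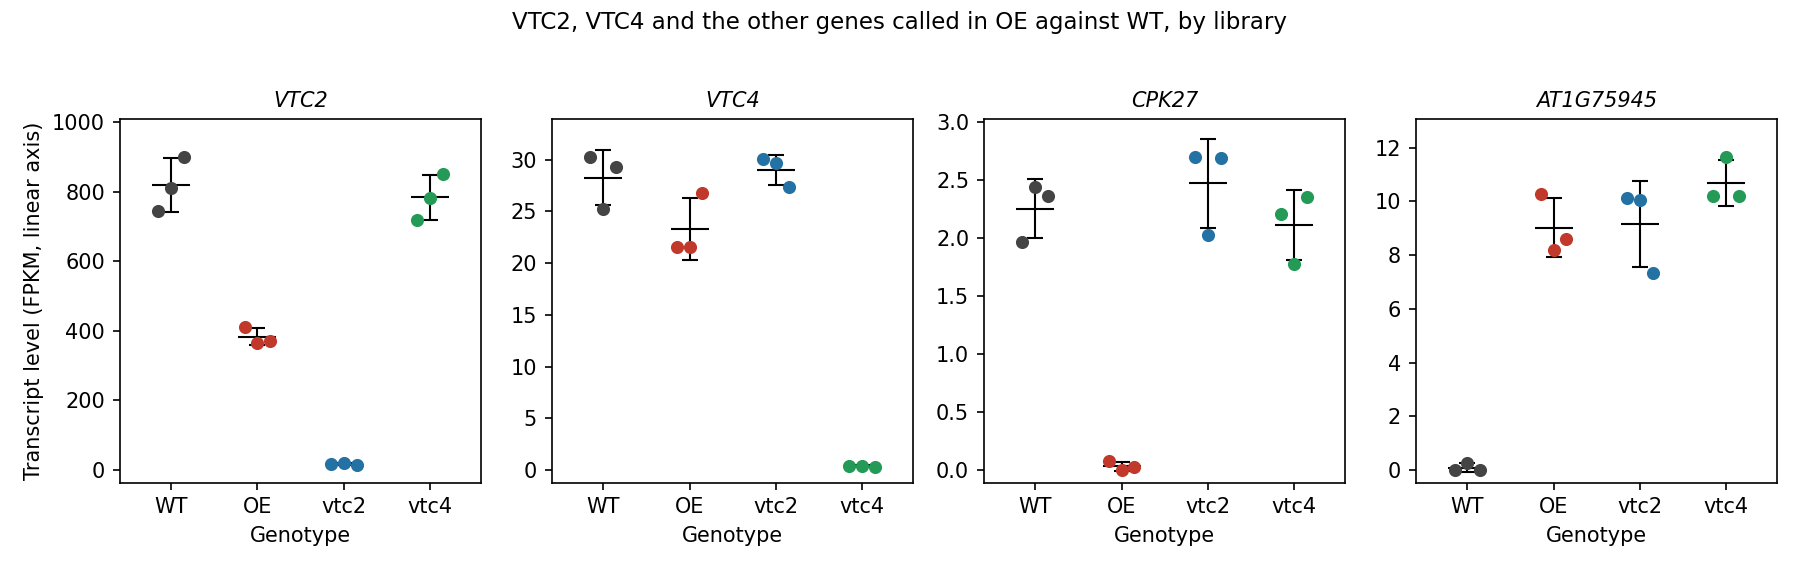
Transcript level in FPKM (linear axis) of VTC2, VTC4, CPK27 and AT1G75945 in each library of the 4 genotypes; points are libraries, and bars are the mean ± SD of 3 libraries. VTC2 in OE lies between vtc2 and WT, CPK27 is near 0 in OE alone of the 4 genotypes, and AT1G75945 is near 0 in WT alone.

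CPK27 (AT4G04700, chromosome 4, 2385038 to 2388105, minus strand) encodes a calcium-dependent protein kinase. It was at 1.96, 2.44 and 2.36 FPKM in WT and at 0.0752, 0 and 0.0239 in OE. Both mutants held WT-like levels, 2.70, 2.03 and 2.69 FPKM in vtc2 and 2.21, 1.78 and 2.36 in vtc4, so that the OE libraries were the only 3 of 12 below 1 FPKM. The fall against WT was -1.65 (SE 0.11, limma adjusted p = 3.22e-05), and that against vtc2 was -1.74 (limma adjusted p = 8.61e-06). CPK27 was also the only gene of the table that was under 0.1 FPKM in all 3 OE libraries and at or above 1 in all 3 WT libraries.

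CPK27 lies in a tandem array of related kinase genes, and no label tells how the quantification divided fragments shared by such copies. The other array members did not share its pattern. CPK31 averaged 4.42 ± 1.49 FPKM in OE and 3.84 ± 0.62 in WT (log2 0.14, unadjusted p = 0.441). CPK21 averaged 22.0 ± 1.06 in OE and 22.9 ± 1.71 in WT (log2 -0.06), and CPK23 averaged 9.03 ± 0.961 and 9.08 ± 1.58. CPK22 did not pass the filter. Of the genes within 5 places of CPK27, 8 were in the table, 4 were tested and 0 were called.

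AT1G75945 (chromosome 1, 28515245 to 28515916, minus strand) encodes an uncharacterized protein from a transcript of 461 bases. It was listed at 0, 0.272 and 0 FPKM in WT and stood at 10.3, 8.18 and 8.60 in OE, a rise of 3.2 log2 units (SE 0.13, limma adjusted p = 1.71e-07). Its level in OE was like that in vtc2 (10.1, 10.1 and 7.33 FPKM; OE minus vtc2 -0.01, limma adjusted p = 0.961) and vtc4 (10.2, 11.7 and 10.2 FPKM). All 9 non-WT libraries were thus above 7 FPKM and all 3 WT libraries under 1. Of the 10 genes beside it, 4 were tested and 0 called.

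Besides AT1G75945, 4 genes that stood far from WT in both mutants, chosen after their values were seen, were at WT level in OE. MRD1 (mto 1 responding down 1) was at 32.3, 31.8 and 27.9 FPKM in OE and at 30.5, 32.0 and 30.4 in WT, while all 6 mutant libraries lay under 0.5. The OE and WT ranges overlapped (log2 -0.02, unadjusted p = 0.9), and OE was 4.72 log2 units above vtc2 (limma adjusted p = 1.81e-10). HEI10, a RING protein of meiotic crossover formation, followed with 2.43, 2.01 and 2.90 FPKM in OE against 2.35, 2.31 and 2.2 in WT, but it shares 1446 bases with MRD1 on the opposite strand, and the strand setting of the quantification is not given, so fragments of the pair may not be told apart. AT5G11330, an FAD/NAD(P)-binding oxidoreductase family gene, was at 46.7, 43.7 and 42.1 FPKM in OE and 44.2, 42.9 and 45.3 in WT, against 17.7 to 20.7 in the mutants. AT1G64795, which lies within ILA on the opposite strand, was listed at 0 in the 3 OE libraries and at 0, 0.836 and 0 in WT, against 78.0 to 127 FPKM in the mutants. OE, although labelled as vtc2 background, was thus at the vtc2 level for AT1G75945 and at the WT level for these 4 genes.

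**Figure D2:**
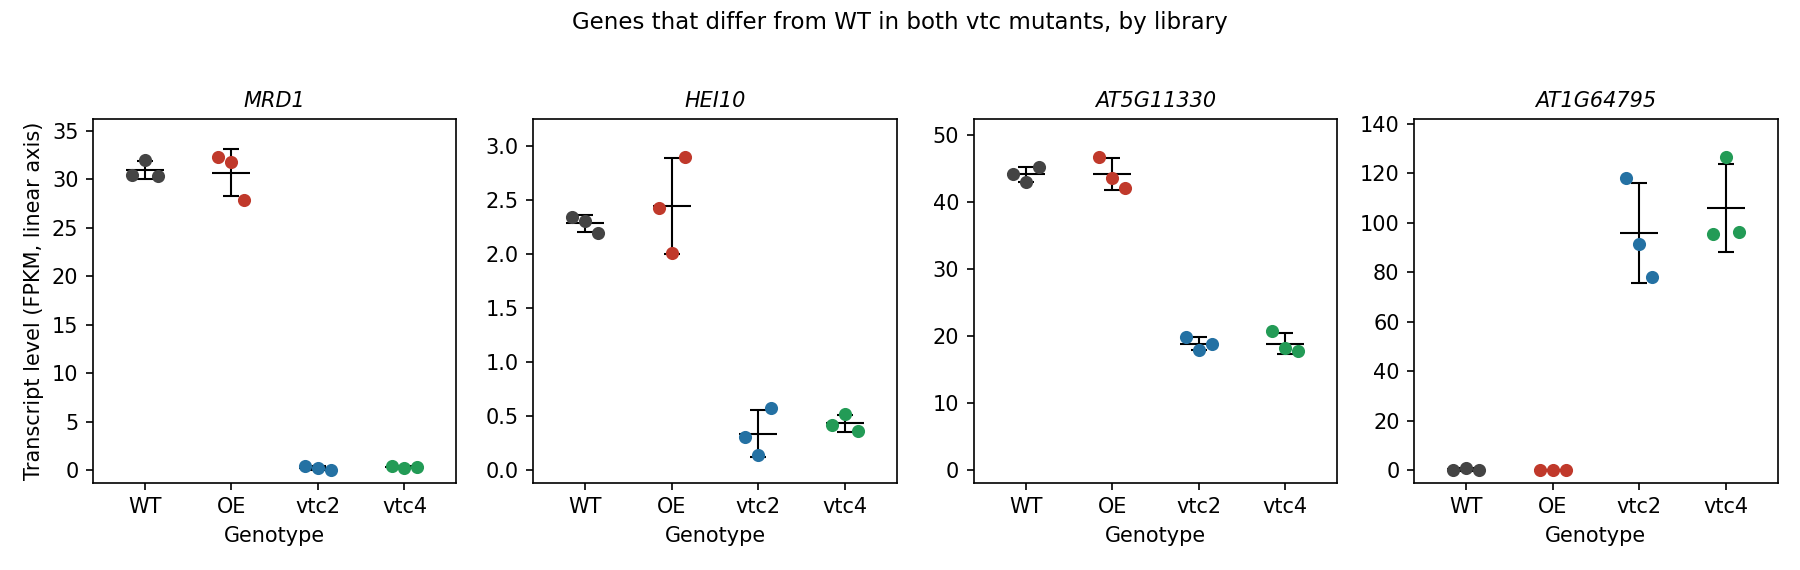
Transcript level in FPKM (linear axis) of MRD1, HEI10, AT5G11330 and AT1G64795 in each library of the 4 genotypes; points are libraries, and bars are the mean ± SD of 3 libraries. For each gene the OE points fall on or beside the WT points, and the vtc2 and vtc4 points lie apart from both.

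The other genes of the ascorbate route were close to WT. Of 12 biosynthesis genes, all tested, VTC2 was the only one called, and the list median was -0.05 beside -0.01 for all genes tested. VTC4, the L-galactose 1-phosphate phosphatase, stood at 21.5, 21.5 and 26.7 FPKM in OE and 30.3, 25.2 and 29.3 in WT. The ranges overlapped, and the difference of -0.27 (SE 0.1) had an unadjusted p of 0.015 and a limma adjusted p of 0.69; in vtc4 its level was 0.276 to 0.426 FPKM. VTC5, the second GDP-L-galactose phosphorylase gene, was at 19.3 ± 0.282 FPKM in OE and 20.1 ± 1.41 in WT (log2 -0.06). GME, the GDP-mannose epimerase, was at 360 ± 19.9 and 350 ± 21.2 FPKM, and VTC1, the GDP-mannose pyrophosphorylase, at 122 ± 4.58 and 125 ± 4.14. GLDH, the mitochondrial enzyme of the last step, was at 8.76 ± 0.74 in OE and 7.98 ± 0.382 in WT (log2 0.12, unadjusted p = 0.124). PMI2, a mannose-6-phosphate isomerase, differed by -0.17 (unadjusted p = 0.163).

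Of the regulators and side routes, 8 of 12 genes were tested and 0 called. MIOX1, a myo-inositol oxygenase, was at 4.85, 4.81 and 4.44 FPKM in OE, above all WT values of 4.197, 3.27 and 3.44 (log2 0.30, SE 0.12, unadjusted p = 0.0265, limma adjusted p = 0.761). Its level in vtc2 was lower, at 1.79 FPKM on average, and OE exceeded vtc2 by 1.03 log2 units (limma adjusted p = 0.00128). ERF98, an activator of ascorbate genes that missed the filter, averaged 1.08 ± 0.142 FPKM in OE and 0.711 ± 0.0291 in WT. The ascorbate-glutathione cycle, which recycles oxidised ascorbate, had 19 of 20 genes tested, 0 called and 0 at an unadjusted p below 0.05, with a median of 0.02. Within it the peroxidase APX1 was at 317 ± 15.7 FPKM in OE and 299 ± 23.4 in WT, and the reductase DHAR1 at 140 ± 10.6 and 124 ± 16.9. The thylakoid peroxidase gene TAPX was at 115 ± 7.22 FPKM in OE and 127 ± 11.3 in WT (log2 -0.14, unadjusted p = 0.0714).

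Auxin biosynthesis, the pathway named in the title, had 8 of 17 genes tested, of which 0 were called and 0 had an unadjusted p below 0.05 (limma); the list median was -0.08, with 2 genes positive and 6 negative. TAA1, the tryptophan aminotransferase of the main route, was at 7.80, 5.80 and 8.57 FPKM in OE and 6.78, 6.56 and 7.08 in WT. Its relative TAR2 was at 4.13, 4.84 and 4.86 in OE and 5.69, 4.68 and 5.66 in WT (log2 -0.18, unadjusted p = 0.112), and OE exceeded vtc2 by 0.39 log2 units (limma adjusted p = 0.0459). YUC6, the only YUCCA flavin monooxygenase gene that passed the filter, was at 2.12 ± 0.133 FPKM in OE and 2.24 ± 0.0531 in WT. The nitrilase NIT2 had the smallest p of the list (28.99 ± 3.31 against 37.5 ± 10.7 FPKM, log2 -0.33, unadjusted p = 0.0612). The ranges of OE and WT overlapped for all of these.

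Among auxin conjugation and catabolism genes, 11 of 16 were tested and 0 called, with a median of 0.17. This was the highest of the 29 lists with at least 3 tested genes, leaving aside the lists added after the values were seen, of which 4 had higher medians, and it became 0.27 with a pseudocount of 0.1 and 0.06 with a mean FPKM of at least 5. GH3.5, an acyl amido synthetase that conjugates auxin, was at 7.97, 5.46 and 7.24 FPKM in OE and 4.68, 5.12 and 5.68 in WT (log2 0.35, unadjusted p = 0.0085, limma adjusted p = 0.627), with overlapping ranges. GH3.6 differed by 0.39 (unadjusted p = 0.0279). Of the SAUR genes, small auxin-induced transcripts, 13 of 15 were tested and 0 called, and 12 of the 13 differences were negative with a median of -0.15, beside 54.05% negative among all tested genes. Relative to the WT mean, the median of these genes was -0.06, -0.15 and -0.23 in the OE libraries and -0.10, 0.01 and 0.06 in WT. WT replicate 1 was thus below OE replicate 1. SAUR50 was at 35.4 ± 1.16 FPKM in OE and 40.8 ± 1.68 in WT without overlap (log2 -0.20, unadjusted p = 0.0413). IAA8, an auxin signalling repressor, was at 116 ± 5.23 and 130 ± 5.3 FPKM without overlap (log2 -0.16, unadjusted p = 0.0113) among 21 tested Aux/IAA genes with 0 calls.

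In all, 421 genes of the 31 lists were tested and VTC2 was the only call. At an unadjusted p below 0.05, 7 stood higher and 13 lower, VTC2 among the latter, beside 3.02% higher and 3.07% lower of all tested genes. The medians of the 29 lists with at least 3 tested genes lay between -0.15 and 0.17. Photosynthesis genes were negative in 18 of 19 cases with a median of -0.07, but 0 were called and all 19 overlapped between OE and WT. Relative to the WT mean, their median was 0.00, -0.15 and -0.08 in the OE libraries and 0.06, -0.14 and 0.08 in WT, so that WT replicate 2 was as low as the lowest OE library. Among other lists, COR47, a cold-induced dehydrin, was at 87.4 ± 0.149 FPKM in OE and 75.6 ± 3.87 in WT (log2 0.21, limma unadjusted p = 0.00807, adjusted p = 0.626). Most of its list of abscisate, cold and drought genes went the other way. Of 20 tested, 15 were negative, 5 were positive and 0 were called, with a median of -0.06. FAMA, a guard cell lineage regulator, was at 7.56 ± 0.382 in OE and 8.93 ± 0.236 in WT (log2 -0.22, unadjusted p = 0.0331). Of the 7 tested genes of the guard cell lineage, 4 were positive, 0 were called and the median was 0.01; SPCH, which starts the lineage, lay on the other side at 1.56 ± 0.172 in OE and 1.17 ± 0.104 in WT without overlap (log2 0.24, unadjusted p = 0.115). In whole rosettes, fewer cells of a type and less RNA per cell cannot be told apart.

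**Figure D3:**
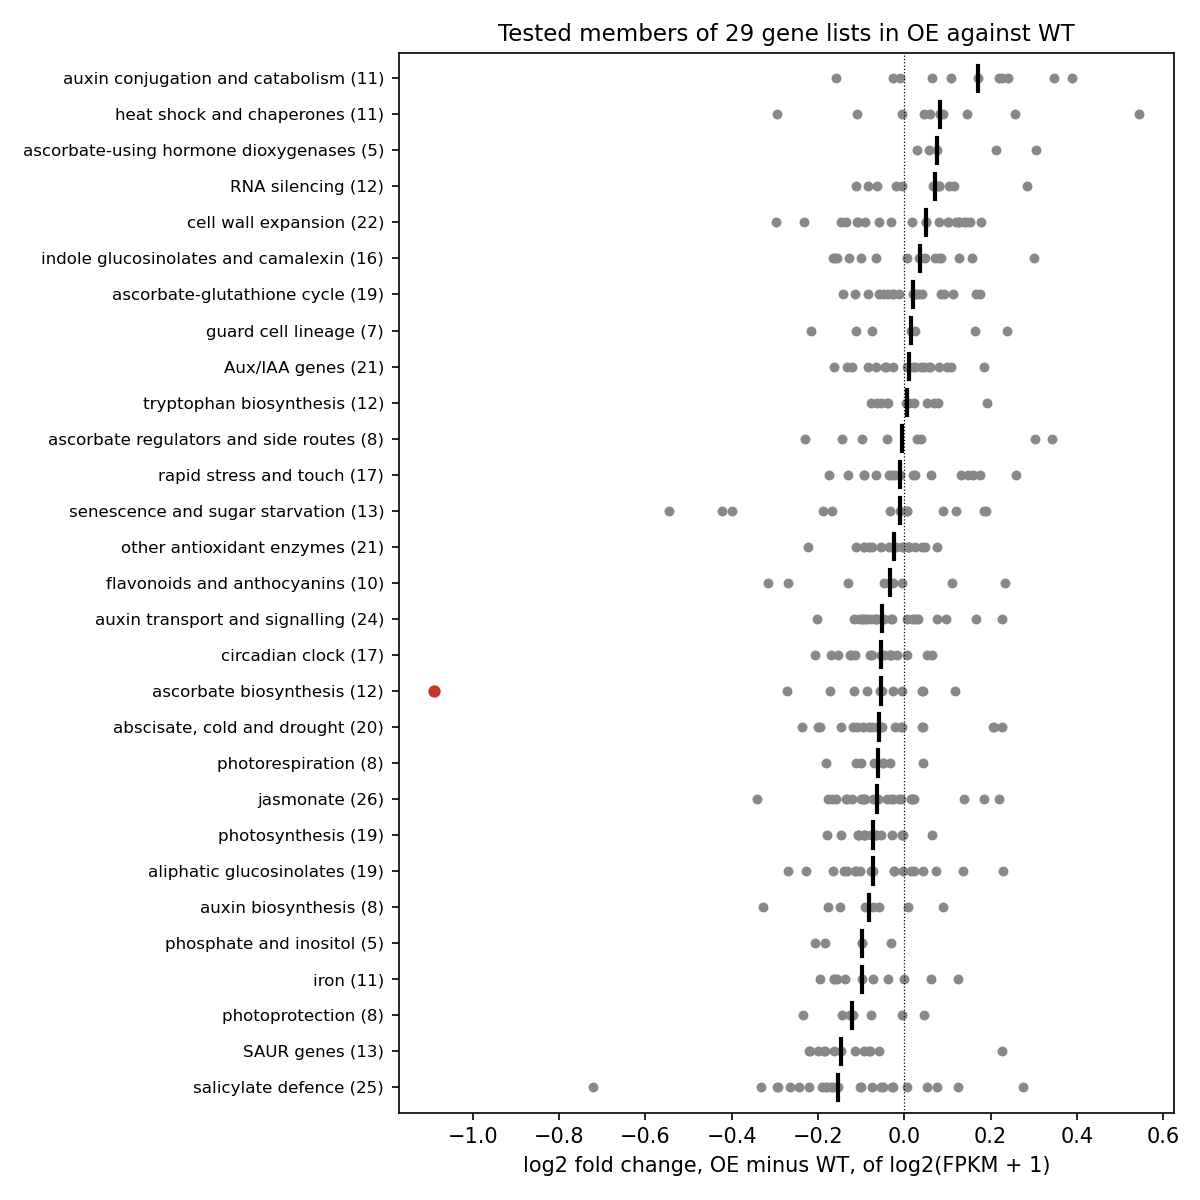
Log2 fold change of OE against WT, on the log2(FPKM + 1) scale, for the tested members of the 29 gene lists with at least 3 tested genes (number tested in parentheses). Grey points are genes, the red point is VTC2, the only gene called, and black bars are list medians, which lie between -0.15 and 0.17.

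The salicylate defence list had the lowest median, -0.15 over 25 tested genes with 0 called, and its libraries were spread widely. Relative to the WT mean, the list median was -0.35, 0.55 and -0.61 in the OE libraries and 0.07, 0.16 and -0.18 in WT. Replicate 2 was thus the highest and replicate 3 the lowest in both genotypes, with a wider spread in OE. PR1, a marker of salicylate signalling, was at 22.5, 103 and 18.7 FPKM in OE and 21.1, 50.2 and 23.0 in WT. The median without OE replicate 2 was -0.49 and that without OE replicate 3 was 0.08. Only 1 gene of the list did not overlap between OE and WT, the salicylate synthesis gene ICS1, beside 5.54% lower without overlap among all tested genes. It was at 3.88, 7.37 and 4.51 FPKM in OE and 9.22, 8.65 and 9.26 in WT (log2 -0.72, SE 0.21, limma unadjusted p = 0.00494, adjusted p = 0.585). OE lay 1.54 log2 units below vtc2 for ICS1 (limma adjusted p = 0.00378). The list median of OE minus vtc2 was -0.95.

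Below the threshold, the genes with the next smallest p and no overlap between OE and WT, taken separately for each direction, were not called, and their values are given as a description. In all, 904 genes (5.38%) were higher and 931 (5.54%) lower in every OE than in every WT library; at a difference of at least 1.5-fold these were 52 (0.309%) and 19 (0.113%). MBP1, a myrosinase-binding protein, was at 11.3, 10.3 and 9.66 FPKM in OE and 5.57, 7.25 and 6.54 in WT (log2 0.62, SE 0.09, limma adjusted p = 0.0616), with 7.28 on average in vtc2. AT4G36520, a DnaJ-domain protein gene, was at 3.35, 3.97 and 2.57 in OE and 0.881, 1.21 and 1.204 in WT (log2 1.02, limma adjusted p = 0.0908). AT5G41650, of the glyoxalase I family, was at 1.35, 1.80 and 1.60 against 0.819, 0.713 and 0.803 FPKM (log2 0.54, limma adjusted p = 0.189). In vtc4 these 3 genes differed from WT by 0.51, 0.99 and 0.45 log2 units in this order. That comparison uses the same WT libraries by which the genes were picked, so it is a description only.

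On the lower side, AT5G24610 was at 27.1, 29.3 and 28.9 FPKM in OE and 36.5, 33.7 and 36.1 in WT (log2 -0.31, limma adjusted p = 0.189), and vtc2 was above WT at 40.2 on average. The noncoding AT3G06125 was at 72.1, 73.4 and 75.4 in OE and 98.9, 100 and 138 in WT (log2 -0.59, limma adjusted p = 0.248). MSRB6, a methionine sulfoxide reductase that repairs oxidised methionine, was at 27.2, 27.2 and 29.04 FPKM in OE and 34.7, 39.9 and 44.0 in WT (log2 -0.49, limma adjusted p = 0.301), and vtc2 was as low as OE at 28.9. The transporter-like AT1G22550 (log2 -0.50) and AT3G17580 (log2 -0.56) had limma adjusted p = 0.301 as well. In vtc2 against the same WT libraries, AT1G22550 (log2 -0.53, limma adjusted p = 0.0194) and MSRB6 (log2 -0.43, limma adjusted p = 0.0403) were called lower. AT1G22550 in vtc4 differed from WT by -0.61 (limma adjusted p = 0.118). ESP, the epithiospecifier protein that steers glucosinolate breakdown towards nitriles, was at 10.6, 10.1 and 11.4 FPKM in OE and 13.0, 13.5 and 13.7 in WT (log2 -0.30, limma adjusted p = 0.331).

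**Figure D4:**
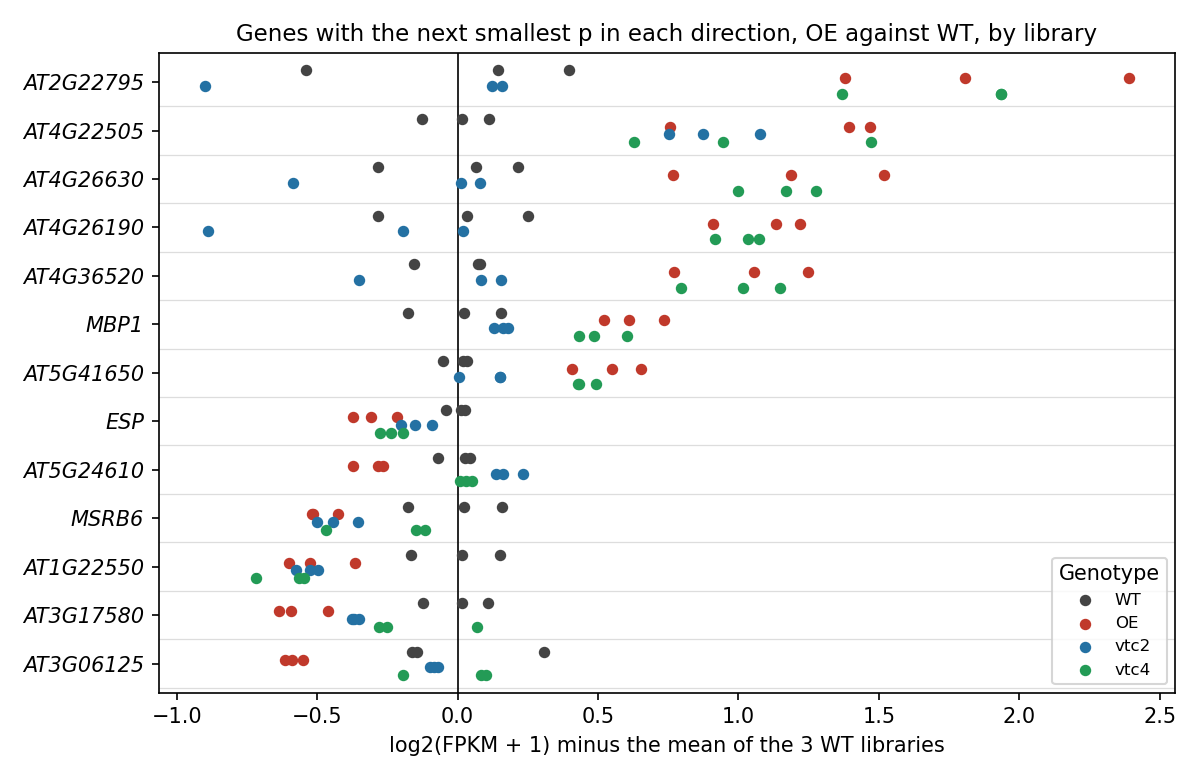
Log2(FPKM + 1) of each library minus the mean of the 3 WT libraries for 13 uncalled genes with the next smallest p in OE against WT, taken separately for 7 higher and 6 lower genes; points are libraries, coloured by genotype. The OE points of each gene lie apart from its WT points, since the genes were picked so. The vtc4 points lie apart from these same WT points, on the OE side, for all 7 higher genes and for ESP and AT1G22550. The share of all tested genes with this order in vtc4 was not computed.

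MBP1 and ESP act in glucosinolate breakdown, the hydrolysis of these defence compounds by myrosinases. A list of such genes and of ER bodies, endoplasmic reticulum compartments that store β-glucosidases, was put together after the values were seen. Of its 15 genes tested, 0 were called. At an unadjusted p below 0.05, 6 were higher and 1 lower, beside 3.02% higher and 3.07% lower of all tested genes. Because the list followed the values, these counts are a description only. The median of the list was 0.20 (0.19 in vtc2 and 0.30 in vtc4 against WT). NSP1, a nitrile specifier protein, was at 26.4, 24.9 and 23.7 FPKM in OE and 18.16, 20.01 and 19.7 in WT (log2 0.36, limma adjusted p = 0.343). The β-glucosidase gene BGLU18 was at 96.7, 105 and 90.6 against 70.7, 71.1 and 81.8 FPKM (log2 0.38, limma adjusted p = 0.414), and PYK10, a β-glucosidase gene known mainly from roots, at 20.4, 18.6 and 21.3 against 10.9, 13.97 and 17.3 FPKM (log2 0.51, limma adjusted p = 0.572). The myrosinases themselves did not separate: TGG1 was at 1154 ± 102 FPKM in OE and 1171 ± 34.1 in WT. Of 6 trichome regulators tested from another such list, 0 were called and 5 were positive, with a median of 0.24. Its gene with the smallest p, GL2, a homeodomain protein of trichome cells, was at 7.29, 5.32 and 5.94 FPKM in OE and 3.68, 3.85 and 4.46 in WT (log2 0.52, limma adjusted p = 0.31), and MYB106 at 5.40, 5.40 and 5.05 against 3.01, 3.56 and 4.50 (log2 0.43, limma adjusted p = 0.416). The ranges of the other 4 overlapped, and TRY, an inhibitor of trichome formation, was at 8.26 ± 0.815 in OE and 9.71 ± 1.08 in WT (log2 -0.21, limma adjusted p = 0.86).

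A cluster of tandem lipid-transfer protein genes on chromosome 4, also listed after the values were seen, had higher values in OE, vtc2 and vtc4 than in WT. All 6 tested members were positive in OE against WT, with a median of 0.91, beside 0.79 in vtc2 and 0.71 in vtc4 against the same WT libraries, and 0 were called in OE. AT4G22505 was at 29.3, 17.5 and 27.8 FPKM in OE and 9.04, 10.1 and 10.8 in WT (log2 1.21, SE 0.21, limma adjusted p = 0.189; 0.399 for OE against vtc2). AT4G22490 was at 55.3, 31.4 and 50.9 against 19.7, 27.1 and 25.1 FPKM (log2 0.88, limma adjusted p = 0.414). These values are uncertain, since members of the cluster are close copies and several overlap antisense genes; AT4G22505 shares 1864 bases with AT4G22495 on the opposite strand.

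A further group of genes with positive differences had purine-rich transcripts. Of the 30 largest positive differences, 10 were in transcripts with at least 55% of A plus G, as were 3 of the 30 largest negative ones, beside 7.38% of all tested genes. Over 16720 tested genes with annotation, the share of A plus G in the transcript had a median of 50.6%. The 77 genes with 60% or more (0.461% of the tested genes) had a median log2 difference of 0.28 in OE against WT, and 70 were positive. Of them 38 (49.35%) lay above every WT library and 0 below, beside 5.38% and 5.54% of all tested genes. At a limma unadjusted p below 0.05, 32 (41.56%) were higher, beside 3.02% of all tested genes. Purine share was not among the planned comparisons, so these counts are a description only. The 1157 genes with 55 to 60% had a median of 0.04, and the 598 genes below 45% one of -0.03. Across genes, Spearman's rho of the difference was 0.14 with purine share, 0.06 with GC share and 0.00 with transcript length; genes share libraries and are not independent, so these are descriptions.

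The 12 libraries split by more than genotype for these genes. The median of the 77 genes relative to the WT mean was 0.34, 0.28 and 0.34 in OE and 0.24, 0.27 and 0.33 in vtc4, but 0.03, -0.57 and 0.01 in vtc2, and the WT libraries themselves ran from -0.13 to 0.08. Of the 19 genes that leaving out vtc2 replicate 2 added to the 3 calls, 18 had transcripts with at least 55% purine. What sets the purine pattern was not tested; with each library's trend over purine share removed, the same 3 genes were called.

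**Figure D5:**
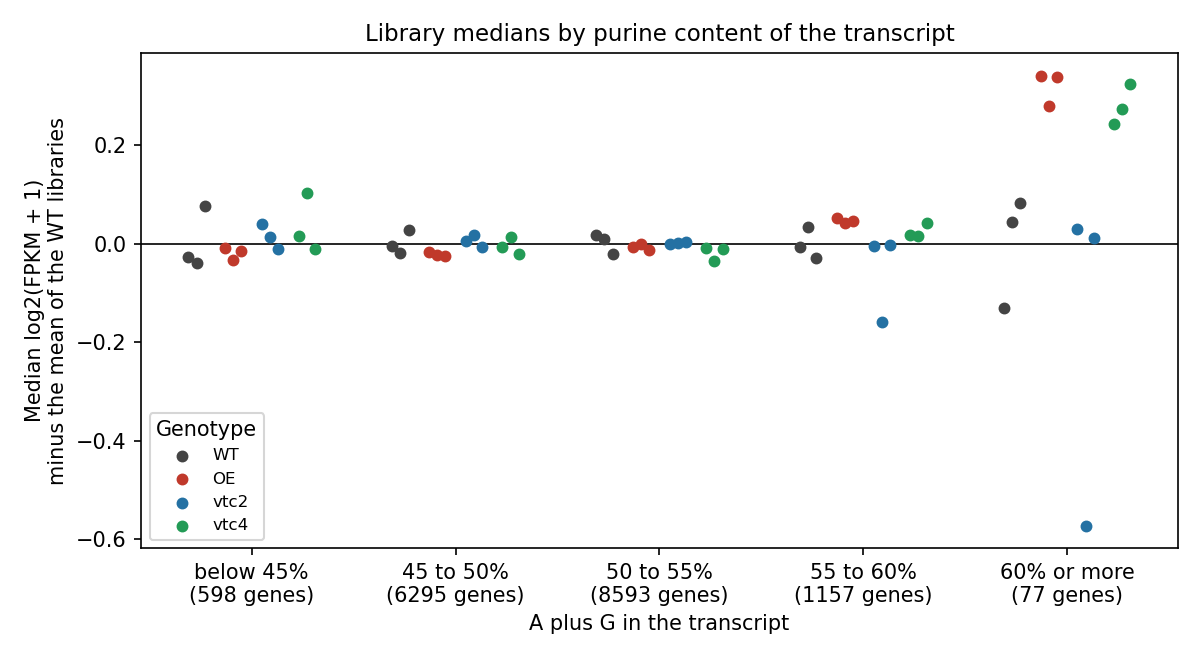
Median of log2(FPKM + 1) minus the mean of the WT libraries, per library, for tested genes grouped by the share of A plus G in the transcript; points are libraries, coloured by genotype. The genotypes lie together up to 55%, and at 60% or more the OE and vtc4 libraries stand above WT while vtc2 replicate 2 stands below.

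The purine-richest stretch of 60 bases within a coding exon shows the composition of such genes. Over 16418 tested genes its purine share had a median of 71.67% and a 90th percentile of 81.67%, and 56 genes (0.34%) reached 95%. The stretches of 4 named genes with large positive differences and, for contrast, of VTC2 and AT4G22505 follow in TAIR10.1 coordinates, all on the minus strand and written 5′ to 3′, with purines in capitals.
AT4G26630 (chr4:13432022-13432081): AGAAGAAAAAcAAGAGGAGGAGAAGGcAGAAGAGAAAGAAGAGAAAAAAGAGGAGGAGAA
AT4G36520 (chr4:17231824-17231883): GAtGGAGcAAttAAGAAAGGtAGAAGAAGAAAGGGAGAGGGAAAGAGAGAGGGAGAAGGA
AT2G22795 (chr2:9698719-9698778): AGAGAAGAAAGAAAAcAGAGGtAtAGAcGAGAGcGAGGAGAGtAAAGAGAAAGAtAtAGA
AT4G26190 (chr4:13265839-13265898): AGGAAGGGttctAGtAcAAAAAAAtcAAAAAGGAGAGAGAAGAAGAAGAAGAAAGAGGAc
VTC2 (chr4:13499488-13499547): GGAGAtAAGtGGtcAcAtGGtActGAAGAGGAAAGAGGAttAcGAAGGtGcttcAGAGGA
AT4G22505 (chr4:11851518-11851577): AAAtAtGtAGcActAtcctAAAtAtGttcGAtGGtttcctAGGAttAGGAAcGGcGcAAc

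AT4G26630 encodes a chromatin-associated protein with a DEK domain, and its stretch is 96.67% purine. It was at 25.8, 32.8 and 19.0 FPKM in OE and 8.68, 11.3 and 12.7 in WT, with every OE library above every WT library (log2 1.16, SE 0.2, limma adjusted p = 0.189). AT4G36520, described above, has a stretch with 91.67%. AT2G22795, an uncharacterized protein gene with 86.67%, had the largest difference of the 8 named genes on the higher side apart from AT1G75945, at 10.5, 16.2 and 7.53 FPKM in OE and 1.26, 2.62 and 3.32 in WT (log2 1.86, SE 0.33, limma adjusted p = 0.189). AT4G26190, a haloacid dehalogenase-like gene with 85.0%, was at 7.57, 8.09 and 6.33 against 2.21, 3.00 and 3.64 FPKM (log2 1.09, limma adjusted p = 0.195). VTC2 and AT4G22505, with 71.67% and 53.33%, lie at and below the median of all genes. Direction did not follow this measure gene by gene: CPK27 and AT3G17580, both lower in OE, had 78.33% and 76.67%, whereas AT5G41650 and AT1G75945, both higher, had 61.67% and 58.33%. Each of the 4 purine-rich genes was higher in OE than in vtc2 (limma adjusted p from 0.00381 to 0.00807), where vtc2 replicate 2 was the lowest of the 12 libraries for all 4.

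The LINC genes, which encode lamin-like proteins of the plant nuclear periphery, belong to this class and were listed after their values were seen. LINC2 was at 5.17, 6.36 and 5.22 FPKM in OE and 1.81, 2.41 and 3.11 in WT (log2 0.95, limma adjusted p = 0.278), and LINC3 at 13.4, 14.5 and 10.3 against 3.56, 4.88 and 7.12 FPKM (log2 1.18, limma adjusted p = 0.343). For all 4 LINC genes OE lay above WT without overlap, beside 5.38% of all tested genes, and as the list followed the values this is a description only. Their median was 0.86, beside 0.79 in vtc4 and -0.14 in vtc2 against WT. By library, the vtc2 medians relative to the WT mean were 0.17, -0.65 and 0.08, so only vtc2 replicate 2 lay below it. LINC4, with the smallest difference of the 4 (log2 0.48), shares 4715 bases with ATBCAT-5 on the same strand, so its fragments may not be told apart from those of that gene. With the purine trend removed, the median was 0.57. CIP1, a coiled-coil protein that binds the light signalling repressor COP1, showed the same arrangement at 29.4, 37.2 and 19.3 FPKM in OE and 4.31, 8.01 and 12.1 in WT (log2 1.74, SE 0.36, limma adjusted p = 0.301).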

How the data were processed

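RNA of 12 rosette libraries was sequenced as pairs of 75 bases from a strand-specific mRNA kit, per the labels' protocols. The authors deposited 1 table of FPKM values, 12 columns wide. According to the submitters' processing notes, Trimmomatic 0.36, HISAT2 2.1.0, Cufflinks 2.2.1 and Cuffdiff were used with the TAIR10 genome. The annotation, strand setting and normalization option are not given in the sources used here. FPKM keep no read totals, so the depth is unknown and no count model was used. All 12 columns were mapped to samples by name.

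Genes that reached 1 FPKM in 3 or more of the 6 OE and WT columns entered limma 3.58.1 (R 4.3.3) as log2(FPKM + 1), a pseudocount of 1. All 12 libraries entered 1 model with genotype as the only factor and a mean-variance trend, so the genotypes share 1 estimate of spread per gene. Tests were two-sided, with Benjamini-Hochberg adjustment over 16815 genes, and the procedure was tested on simulated data. Of the table's IDs, 32217 of 33618 matched the RefSeq TAIR10.1 annotation, which supplied names, coordinates, base composition and sequences. Base composition is that of the annotated transcript. GL2, MYB106, PYK10, CIP1, GAPCP-1, PFK2, SRF4 and AT2G08330 overlap annotated neighbours, and fragments of such pairs may not be told apart.

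Genes and the 31 lists (504 genes, after 5 whose symbol the annotation gives to another gene were dropped) were chosen with earlier results of these data known, and 6 lists were added after seeing the values. The lists without a mention in the report had 0 calls; their medians are in the plot of gene lists. Of the added list of CPK genes beside CPK27, 4 of 5 were tested, 1 was called and the median was -0.03; of the added list of genes switched in both mutants, 4 of 5 were tested, 1 was called and the median was 0.03. Named genes were VTC2 and VTC4, then up to 12 called genes a direction by size with a mean FPKM of at least 1 and no overlap, with places filled up to 8 by smallest p, then list members by smallest p. In all, 28 alternatives were tried, 26 planned and 2 added after seeing the data.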

Additional observations from a re-analysis of the deposited data

How the results depend on the processing

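VTC2, CPK27 and AT1G75945 were called together in 27 of 28 alternatives; with a mean FPKM of at least 5, which leaves out the other 2 genes, the total was 1 (0 higher, 1 lower: VTC2). The total of 3 genes called (1 higher, 2 lower) became 7 (5 higher) with only the 6 OE and WT libraries in the fit, 5 (3 higher) with robust moderation and 6 (4 higher) with library weights, and 2 were called higher without the trend in the prior. Leaving out 1 library at a time gave totals from 3 to 22, from 1 to 20 higher and 2 lower; the 22 came without vtc2 replicate 2, and 2 were called higher without WT replicate 2, WT replicate 3 or OE replicate 2. No paired analysis is part of the report, since no label says whether same-numbered WT and OE libraries belong together. The correlations of their deviations were -0.06, 0.09 and 0.19, beside -0.21 to 0.15 for differently numbered libraries. Whether libraries of the same number share a batch is thus unknown. The fit with a replicate block gave 3 calls over 12 libraries and 9 (5 higher, 4 lower) over the 6. The cause of these changes was not tested. Over 52 named genes and their alternatives, 0 results were reversed, 0 lost a call and 14 gained one, for MBP1, AT4G36520, AT4G22505, AT4G26630, AT2G22795, AT4G26190, AT5G41650 and LINC2. VTC2 ranged from -1.16 to -1.02 (limma adjusted p from 0.00027 to 0.0122) and CPK27 from -4.18 to -1.61. List medians moved by more than the spread between replicates in 18 of 980 cases. All rescalings shifted the median of all genes by less than 0.1. With 3 libraries a genotype, small differences of weakly expressed genes are not detectable.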

Other observations

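A few further genes stood out by value and were chosen after their values were seen; none was called. GAPCP-1, a plastid glyceraldehyde-3-phosphate dehydrogenase, was at 6.77, 7.98 and 9.00 FPKM in OE and 4.75, 5.30 and 5.82 in WT (log2 0.50, limma adjusted p = 0.325). PFK2, a phosphofructokinase gene, was at 10.1, 8.63 and 8.28 against 6.83, 6.88 and 6.19 FPKM (log2 0.39, limma adjusted p = 0.343). AT3G06130, a heavy metal transport family gene, was at 13.4, 11.6 and 14.2 FPKM in OE and 8.72, 9.23 and 10.2 in WT (log2 0.44, limma adjusted p = 0.301). The receptor kinase gene SRF4 was at 8.13, 7.12 and 6.99 FPKM in OE and 11.2, 9.90 and 9.05 in WT, and vtc2 lay on the other side at 15.9 on average (OE minus vtc2 -1.01, limma adjusted p = 0.000209).

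Of genes listed at 0 in all WT libraries, 3 were at or above 1 FPKM in all OE libraries. The noncoding AT1G04193 was at 17.7, 19.2 and 22.9 FPKM in OE and was listed at 0, 21.5 and 44.6 in vtc2, and AT2G08330 was at 3.39, 1.70 and 1.85 in OE and 19.0, 1.85 and 3.73 in vtc2. ENSRNA049493772 was at 9.75, 3.31 and 7.46 in OE and was listed at 10.0, 0 and 0 in vtc2. The first 2 have transcripts of 117 and 168 bases, and limma adjusted p was 0.57, 0.796 and 0.592 for the 3 in this order with all 12 libraries in the fit. With only the 6 OE and WT libraries all 3 were among the 7 genes called, at limma adjusted p = 4.13e-07, 0.0206 and 0.0111. All 3 varied between presence and a listed 0 within the mutants, whose spread that fit leaves out. The 7 also held the well-expressed AT3G05900, at 131, 124 and 124 FPKM in OE and 67.6, 77.6 and 81.0 in WT. Its limma adjusted p was 0.0177 in that fit and 0.82 with all 12 libraries, and vtc2 held 94.3, 23.4 and 70.7 FPKM.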
